A study of Saccharomyces cerevisiae with 8 samples.

Results

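The 10 genes described here serve iron uptake in Saccharomyces cerevisiae, the baker's and brewer's yeast that also ferments sugarcane. They were chosen by name, as FRE2, FET3, FTR1, FET4, FIT1, FIT2, FIT3, ARN1, ARN2 and SIT1, and each was found by its systematic name among the 6256 gene probes of the array. Each gene has 1 probe, printed in 2 spots. All 10 passed the filter on dim probes, which 5938 genes passed in all.

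RNA was measured on 8 Agilent 2-colour arrays of a fermentation assay. After 6 h (T6h), JP1 and CAT-1 were sampled on 2 arrays each and BY4741 on 1, and at the start (T0h) PE-2, JP1 and CAT-1 were sampled on 1 array each. PE-2 and CAT-1 are diploid heterothallic and JP1 is diploid homothallic. All 3 come from ethanol mills, while the laboratory strain BY4741 is haploid, of mating type a and deleted for HIS3, LEU2, MET17 and URA3. Each sample carried the red dye (Cy5) and was set against BY4741 RNA of T0h in the green dye (Cy3), so every array shares that reference. PE-2 was thus not sampled at T6h, and BY4741 entered T0h only as the green reference. Before the assay, biomass was built up over successive 1-day cultures in YPD, a rich medium with glucose. The composition of the fermentation medium, its iron content included, is not given in the sources used here. The study's design calls the samples of each time biological replicates, though they are of different strains.

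Yeast takes up iron along several routes. Surface reductases such as Fre2 reduce ferric iron, and the ferrous iron is then carried in either by a high-affinity pair, the multicopper ferroxidase Fet3 with the permease Ftr1, or by the low-affinity transporter Fet4, which also accepts other metals. Iron bound to siderophores, chelators made by other microbes, is held near the cell wall by the mannoproteins Fit1, Fit2 and Fit3 and imported by Arn1, Arn2 and Sit1. The transcription factors Aft1 and Aft2 switch on most of these genes when iron is scarce. FET4 is known in addition for its repression by Rox1 in well-aired cells.

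Several features of the arrays bear on the values below. The 6 arrays of slide 1 had all 10 genes well above background in green, while the 2 arrays of slide 2 (JP1 replicate 4 and CAT-1 replicate 5, both T6h) had none, with a green background of 387 and 348 brightness units against 24 to 28 on slide 1. Results are therefore also given on slide 1 alone or on the red signal alone. In red, FET3 was not well above background on CAT-1 T6h replicate 2, SIT1 on CAT-1 T6h replicate 5, and FIT2 on both CAT-1 T6h arrays. The labelling protocol mentions a dye swap for comparing industrial strains, but per the labels every sample is red and every reference green, and the signs of the ratios follow those labels. Without a swap, a dye effect of a probe stays in any ratio set against 0 and cancels between 2 arrays. In the deposited value table, 3 of 8 columns followed best the array they are named for, and the column named for JP1 at T0h followed JP1 T6h replicate 1 with a correlation of 0.9998 across genes, as did the column named for CAT-1 at T0h with CAT-1 T6h replicate 2. The column named for CAT-1 T6h replicate 2 followed best JP1 T0h replicate 2, at 0.916 against 0.181 for its own array. The columns named for JP1 T6h replicate 1 and PE-2 at T0h followed best BY4741 at T6h. These 2 correlations were 0.914 against 0.895 for the own array, and 0.358 against 0.174. Leaving out the 2 T6h arrays held under T0h names, as below, thus covers only part of the mismatch. Whether the table or the scanner files carry the wrong names is not given. The scanner files correlated at 0.488 to 0.793 among T6h arrays, at 0.670 to 0.790 among T0h arrays and at 0.0834 to 0.302 across the times, and their names were used. The BY4741 T6h array bore out its label: the 4 deleted genes gave 4.5 to 7.5 brightness units over the red background, and the a-factor gene MFA2 had a log2 red level of 6.14 to 6.51 on the 7 industrial arrays, against 9.47 on that of BY4741. The other genes of mating type a that were looked at differed less in log2 ratio at T6h, JP1 and CAT-1 against BY4741. MFA1 was at -1.28, BAR1 at -0.58, STE6 at -0.48, AGA2 at -0.44 and STE2, which overlapped, at -0.28. At T0h STE6 was higher in the industrial strains than in BY4741, at 0.25. Fewer cells that express a gene and less RNA per cell cannot be told apart in such bulk samples.

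FET4 (YMR319C), the low-affinity iron transporter, changed most with time among the 10 genes. Its log2 ratio of sample over BY4741 T0h was 0.24 and 0.90 in JP1 at T6h, -0.22 and -0.26 in CAT-1 at T6h and -0.60 in BY4741 at T6h, against -1.95 in PE-2, -1.74 in JP1 and -2.62 in CAT-1 at T0h. Every T6h array lay above every T0h array, with more than 1 log2 unit between the groups. FET4 averaged 0.01 ± 0.58 at T6h (SD, n = 5) and -2.10 ± 0.46 at T0h (SD, n = 3). The difference of 2.11 ± 0.36 on the log2 scale (SE) passed limma's test across all 5938 genes with a Benjamini-Hochberg adjusted p of 0.00301. Within JP1 and CAT-1, the strains seen at both times, and with strain as a term, it was 2.34 ± 0.31 with an adjusted p of 0.000556.

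The red signal alone, which does not use the green channel, separated the times in FET4 as well. Its log2 red level was 8.62 and 8.63 in JP1 at T6h, 7.88 and 8.79 in CAT-1 at T6h and 7.91 in BY4741 at T6h, against 6.99 in PE-2, 6.86 in JP1 and 6.05 in CAT-1 at T0h. The rise was 1.73 over all strains, with an adjusted p of 0.0036, and 2.03 in JP1 and CAT-1, with an adjusted p of 0.000948. On slide 1 alone the rise in JP1 and CAT-1 was 2.19, with an adjusted p of 0.0122. Without the 2 T6h arrays that the value table holds under T0h names it was 2.50, with an adjusted p of 0.000345.

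**Figure D1:**
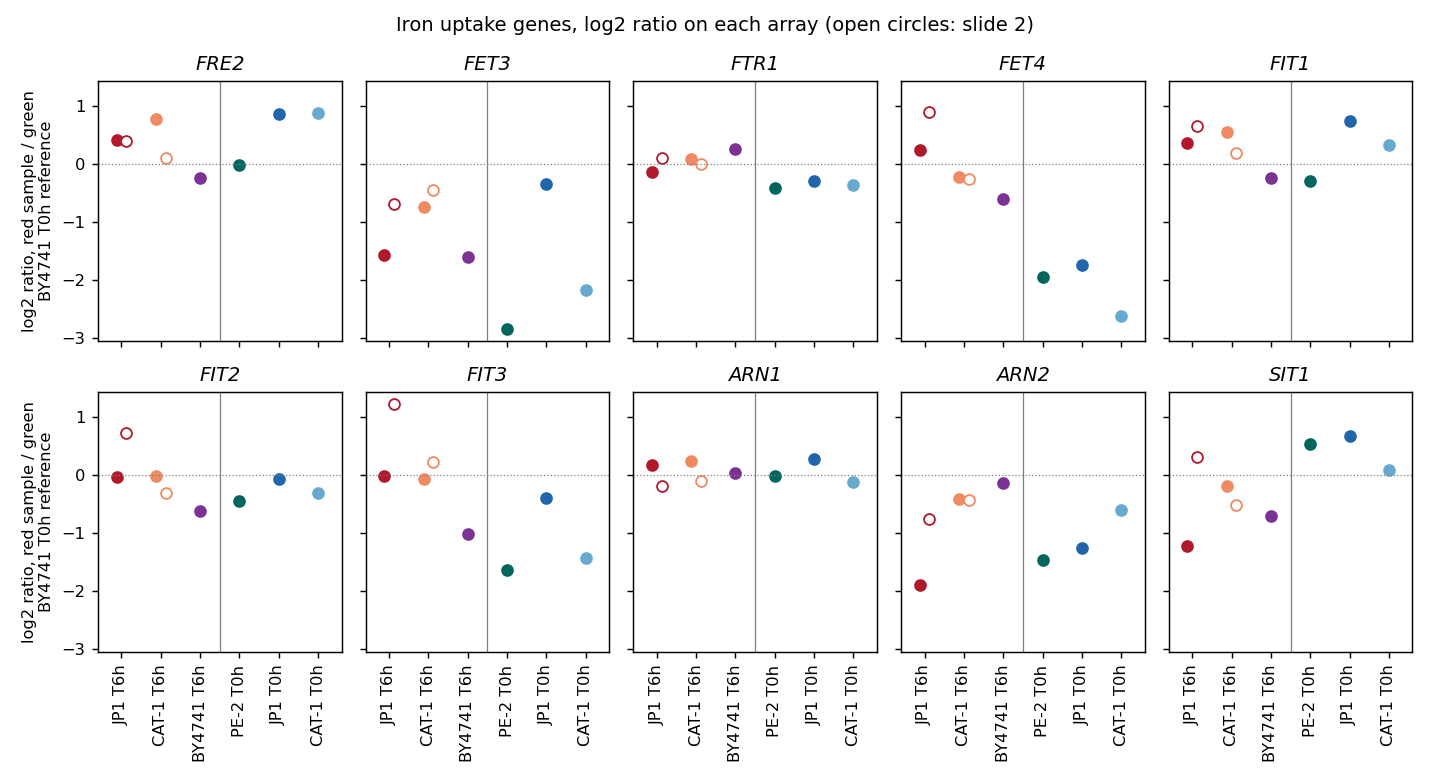
Log2 ratio of sample over the BY4741 T0h reference (vertical axes) for the 10 iron uptake genes, 1 panel each; points are single arrays by strain and time, with T6h left of T0h, open circles are the arrays of slide 2 and the dotted line marks no difference. FET4 shows 5 T6h points between -0.60 and 0.90 above 3 T0h points between -2.62 and -1.74, while ARN1 and FTR1 lie close together on all 8 arrays.

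FET3 and FTR1, the high-affinity pair, differed in how far they varied. FET3 (YMR058W) had log2 ratios of -1.57 and -0.70 in JP1 at T6h, -0.74 and -0.45 in CAT-1 at T6h and -1.61 in BY4741 at T6h, against -2.84 in PE-2, -0.34 in JP1 and -2.17 in CAT-1 at T0h. All 8 ratios were below 0. JP1 at T0h stood apart from the other T0h arrays, with a red level of 7.98 against 6.37 in PE-2 and 6.19 in CAT-1. The groups overlapped, and the change with time of 0.77 ± 0.51 (SE) over all strains did not pass the test, with an adjusted p of 0.333. Within JP1 and CAT-1 it was 0.39 ± 0.49, with an adjusted p of 0.623.

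FTR1 (YER145C), the permease that works with Fet3, spanned a narrow range. Its log2 ratios were -0.14 and 0.10 in JP1 at T6h, 0.09 and 0.0040 in CAT-1 at T6h and 0.25 in BY4741 at T6h, against -0.41 in PE-2, -0.29 in JP1 and -0.36 in CAT-1 at T0h. The T6h arrays all lay above the T0h arrays, but by little: the difference of 0.42 ± 0.23 (SE) had an adjusted p of 0.254 over all strains. The standard deviation of FTR1 over the 8 arrays was 0.24, at the 4.60th percentile of the genes kept, while that of FET3 was 0.90, at the 85.4th percentile. Over all genes kept, the median of that standard deviation was 0.52.

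FRE2 (YKL220C) encodes a surface ferric reductase. Its log2 ratios were 0.42 and 0.40 in JP1 at T6h, 0.77 and 0.10 in CAT-1 at T6h and -0.24 in BY4741 at T6h, against -0.02 in PE-2, 0.86 in JP1 and 0.89 in CAT-1 at T0h. The T6h arrays of JP1 and CAT-1 were all below their T0h arrays, yet the difference of -0.45 ± 0.31 (SE) did not pass, with an adjusted p of 0.346. The red signal alone gave a difference of the other sign, 0.20, with an adjusted p of 0.543. FRE2 belongs to a family of related reductases, and whether its probe also binds RNA of a relative was not tested.

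The 3 FIT genes encode mannoproteins of the cell wall that hold siderophore-bound iron. FIT3 (YOR383C) had log2 ratios of -0.01 and 1.23 in JP1 at T6h, -0.06 and 0.22 in CAT-1 at T6h and -1.01 in BY4741 at T6h, against -1.63 in PE-2, -0.38 in JP1 and -1.43 in CAT-1 at T0h. Within JP1 and CAT-1 the T6h arrays all lay above the T0h arrays, while BY4741 at T6h lay among the T0h values. FIT3 rose by 1.26 ± 0.38 (SE) in JP1 and CAT-1, with an adjusted p of 0.0391. Over all strains the difference was 1.22 ± 0.46 and did not pass, with an adjusted p of 0.0949.

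The call for FIT3 in JP1 and CAT-1 rests on the choice of arrays, signal and processing, and held in 6 of 16 alternatives. It was lost with Agilent's processed signals, an offset of 16, median centring or slide as a block. In these strains the red signal alone gave 0.81 with an adjusted p of 0.0212, while slide 1 alone gave 0.88 with an adjusted p of 0.158. The call was also lost when JP1 T0h replicate 2, CAT-1 T0h replicate 3, CAT-1 T6h replicate 2, JP1 T6h replicate 4 or CAT-1 T6h replicate 5 was left out, with adjusted p of 0.0800 to 0.300. Over all strains it was gained without the BY4741 array, at 1.50 with an adjusted p of 0.0225. Without the 2 T6h arrays that the value table holds under T0h names, the value in JP1 and CAT-1 was 1.63, with an adjusted p of 0.0107.

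FIT1 and FIT2 moved less in log2 ratio. FIT1 (YDR534C) had log2 ratios of 0.36 and 0.66 in JP1 at T6h, 0.56 and 0.20 in CAT-1 at T6h and -0.23 in BY4741 at T6h, against -0.30 in PE-2, 0.75 in JP1 and 0.33 in CAT-1 at T0h. FIT2 (YOR382W) had -0.02 and 0.73 in JP1 at T6h, -0.0049 and -0.31 in CAT-1 at T6h and -0.62 in BY4741 at T6h, against -0.44 in PE-2, -0.07 in JP1 and -0.30 in CAT-1 at T0h. FIT2 was not well above the red background on either CAT-1 T6h array, so its level there is only a bound. In both genes the times overlapped, and PE-2 at T0h and BY4741 at T6h had the lowest ratios of FIT1. The change with time over all strains was 0.05 ± 0.31 (SE) for FIT1, with an adjusted p of 0.939, and 0.23 ± 0.32 for FIT2, with an adjusted p of 0.676. FIT2 and FIT3 are neighbours on chromosome XV, yet FIT2 varied less: its standard deviation over the 8 arrays was 0.41, against 0.95 for FIT3.

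**Figure D2:**
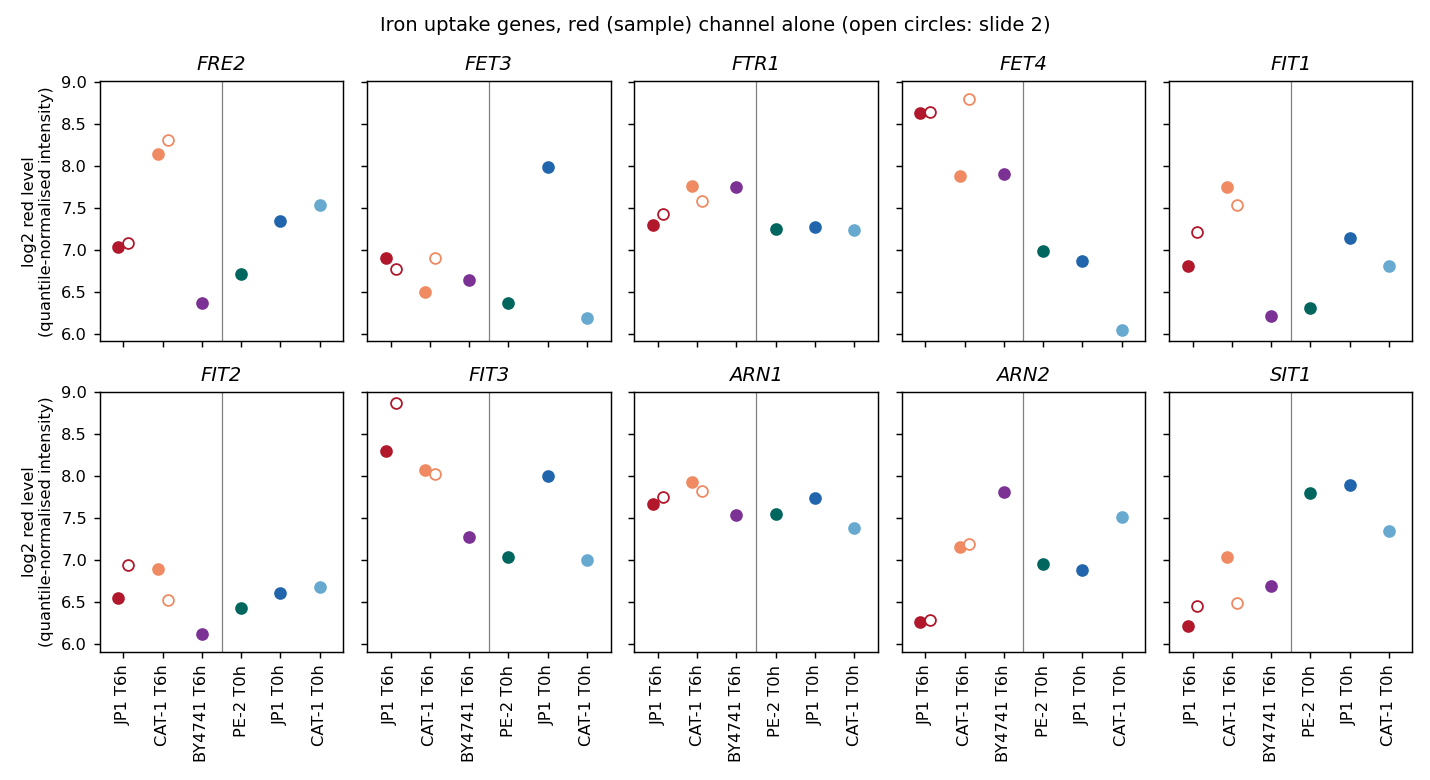
Log2 level of the red (sample) signal, quantile-normalised between arrays (vertical axes), for the 10 genes, 1 panel each; points are single arrays by strain and time, with T6h left of T0h, and open circles are the arrays of slide 2. FET4 is at 7.88 to 8.79 on the T6h arrays and 6.05 to 6.99 on the T0h arrays, and SIT1 is at 6.22 to 7.04 on the T6h arrays and 7.34 to 7.89 on the T0h arrays.

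The siderophore importers went separate ways. SIT1 (YEL065W), the importer of ferrioxamine B, had log2 ratios of -1.21 and 0.32 in JP1 at T6h, -0.19 and -0.52 in CAT-1 at T6h and -0.71 in BY4741 at T6h, against 0.53 in PE-2, 0.67 in JP1 and 0.08 in CAT-1 at T0h. JP1 replicate 4, on slide 2, was the only T6h array within the T0h range. The difference of -0.89 ± 0.35 (SE) over all strains had an adjusted p of 0.105, and that of -0.78 ± 0.42 in JP1 and CAT-1 had 0.226. The call for SIT1 changed with the signal used. In red its log2 level was 6.22 and 6.46 in JP1 at T6h, 7.04 and 6.49 in CAT-1 at T6h and 6.69 in BY4741 at T6h, against 7.80 in PE-2, 7.89 in JP1 and 7.34 in CAT-1 at T0h, with no overlap. On the red signal alone SIT1 fell by 1.10 over all strains, with an adjusted p of 0.00853, and by 1.06 in JP1 and CAT-1, with an adjusted p of 0.0161. That signal called many genes, 1613 of 5938 over all strains and 2505 in JP1 and CAT-1. On ratios it also passed over all strains once JP1 T6h replicate 4 was left out, at -1.09 with an adjusted p of 0.0435, though on slide 1 alone the difference of -1.13 had an adjusted p of 0.0604.

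ARN1 (YHL040C), the ferrichrome importer, was among the steadiest genes of the array. Its log2 ratios were 0.18 and -0.18 in JP1 at T6h, 0.25 and -0.11 in CAT-1 at T6h and 0.05 in BY4741 at T6h, against -0.01 in PE-2, 0.27 in JP1 and -0.12 in CAT-1 at T0h. Its standard deviation over the 8 arrays was 0.18, at the 0.977th percentile of the genes kept, and its change with time was -0.0090 ± 0.25 (SE), with an adjusted p of 0.987.

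ARN2 (YHL047C), the importer of triacetylfusarinine C, was below the reference on every array. Its log2 ratios were -1.90 and -0.75 in JP1 at T6h, -0.41 and -0.43 in CAT-1 at T6h and -0.13 in BY4741 at T6h, against -1.46 in PE-2, -1.25 in JP1 and -0.60 in CAT-1 at T0h. The times overlapped, and the difference of 0.38 ± 0.40 (SE) had an adjusted p of 0.553. By strain, the 3 CAT-1 arrays all lay above the 3 JP1 arrays, as they did for 5.78% of all genes. On the T6h arrays its log2 red level was 7.16 and 7.19 in CAT-1 and 6.27 and 6.29 in JP1.

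Over all strains, 1 of the 10 genes rose with time and 0 fell, where 15.6% of all genes passed either way and 9.72% rose. With JP1 and CAT-1 alone, 2 of 10 rose and 0 fell, where 19.7% of all genes passed either way and 12.7% rose. Both shares of the 10 were near the background. The median difference of the 10 genes was 0.30 over all strains and 0.17 in JP1 and CAT-1, beside 0.0012 and -0.0044 for all genes kept. Over all strains, FET4 and FTR1 were higher at T6h with no overlap between the times, as were 13.2% of all genes. Within JP1 and CAT-1 the times did not overlap for FET4, FIT3, FTR1 and FRE2, as for 40.8% of all genes.

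**Figure D3:**
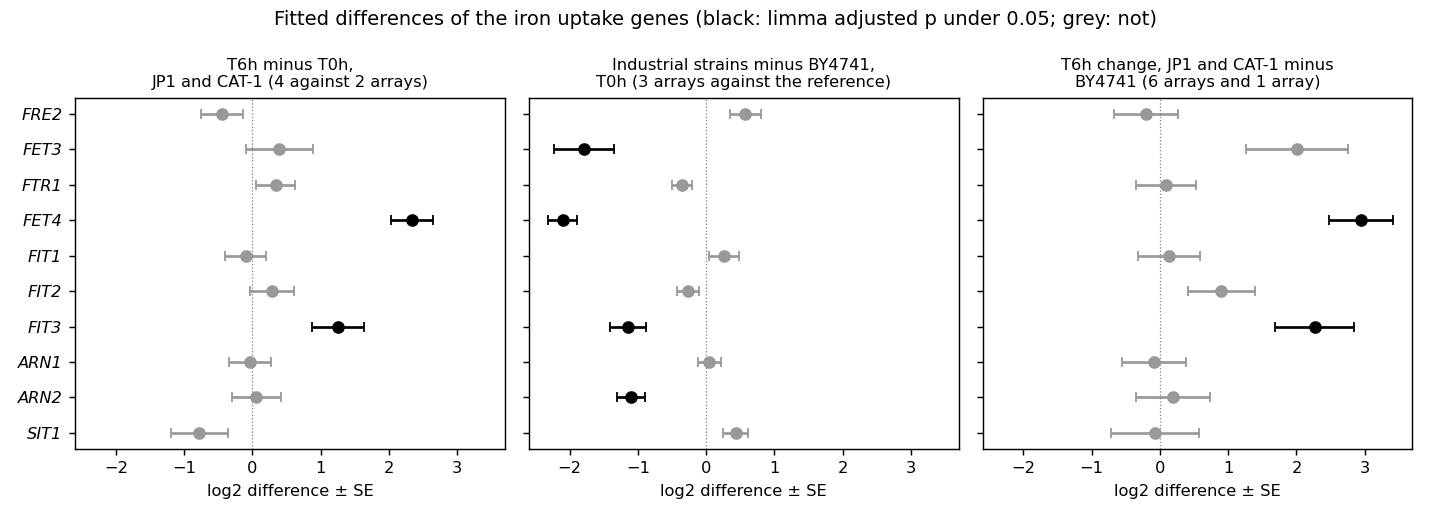
Log2 differences (horizontal axes) of the 10 genes for T6h minus T0h in JP1 and CAT-1, for the industrial strains minus BY4741 at T0h, and for the T6h change of JP1 and CAT-1 minus that of BY4741; points are estimates, bars are standard errors, and black marks an adjusted p under 0.05. FET4 lies farthest from 0 in each panel, at 2.34 ± 0.31, -2.10 ± 0.21 and 2.94 ± 0.47, and FIT3 is black in all of them.

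At the start of the assay, the industrial strains were set against the BY4741 reference by testing the 3 T0h ratios against 0. This leaves out the spread of the single reference RNA, and any dye effect of a probe stays in the value. The test shares the T0h arrays with the comparisons of time, so its values are not independent of those. FET4 was lower in the industrial strains, at -2.10 ± 0.21 (log2, SE) with an adjusted p of 0.00214, and FET3 at -1.79 ± 0.44, with 0.0243. FIT3 was lower, at -1.15 ± 0.26 with 0.0189, and ARN2 at -1.11 ± 0.21, with 0.0105. Each of these 4, and FTR1 and FIT2 too, had a ratio below 0 in PE-2, JP1 and CAT-1 alike, as had 32% of all genes. SIT1 had a ratio above 0 in all 3 strains. The 4 that passed belong to 3 routes: low-affinity transport, high-affinity transport and siderophore-bound iron. FTR1, FIT1, FIT2, ARN1 and SIT1, of the same routes, did not pass. FIT1 was at 0.26, FIT2 at -0.27 and ARN1 at 0.05.

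In all, 4 of the 10 genes were lower and 0 higher at T0h, where 32.7% of all genes passed either way and 17.5% were lower. The median of the 10 was -0.31, beside 0.00019 for all genes kept. FRE2, at 0.57 ± 0.22 (SE), and SIT1, at 0.43 ± 0.18, had the highest values and did not pass, with adjusted p of 0.0924 and 0.112. FTR1 was at -0.35 ± 0.15, with an adjusted p of 0.118. FET3 and FIT3 lost their calls without CAT-1, at -1.59 with an adjusted p of 0.136 and -1.01 with 0.124. FRE2 passed without PE-2, at 0.87 with an adjusted p of 0.0108.

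BY4741 itself was sampled once at T6h, so its change from the BY4741 T0h reference has no test. Its ratios in the 10 genes ran from -1.61 for FET3 and -1.01 for FIT3 to 0.25 for FTR1. FET3 and FIT3 were at least 2-fold lower, 2 of 10, where 28.7% of all genes were at least 2-fold away either way and 13.1% lower. The median of the 10 was -0.42, beside -0.01 for all genes.

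The time changes of JP1 and CAT-1 were then set against that of BY4741, which rests on the 1 BY4741 array and on the reference at T0h. The test leaves out the spread of that reference. Any dye effect of a probe stays in the BY4741 ratio, while it cancels within the change of JP1 and CAT-1. FET4 rose more in JP1 and CAT-1, by 2.94 ± 0.47 (log2, SE) with an adjusted p of 0.00679, and FIT3 by 2.27 ± 0.58 with an adjusted p of 0.0308. For both genes the T6h ratios of JP1 and CAT-1 lay above their T0h ratios, while the single BY4741 T6h array lay below its reference, at -0.60 for FET4 and -1.01 for FIT3. These were 2 of the 10 genes, where 12% of all genes passed either way and 6.74% upward. FET3 had a difference of 2.00 ± 0.75 that did not pass, with an adjusted p of 0.103. Without the 2 T6h arrays that the value table holds under T0h names, FET4 was at 3.10 with an adjusted p of 0.0028, FIT3 at 2.65 with 0.00646 and FET3 at 2.29 with 0.0297. FIT3 kept its call in 6 of 14 alternatives, with adjusted p up to 0.261, and FET4 in 12 of 14. On slide 1 alone FIT3 did not pass, at 1.89 with an adjusted p of 0.0833, while FET4 did, at 2.78 with 0.0457.

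At T6h the 4 arrays of JP1 and CAT-1 were set against that of BY4741, and 0 of the 10 genes passed by limma's adjusted p, where 0% of all genes did. At an unadjusted p under 0.05 there was 1 of the 10, FIT3, and 894 of all genes. FIT3 was 1.36 ± 0.56 (log2, SE) higher, with an adjusted p of 0.301, and its ratios in the 4 arrays of JP1 and CAT-1 were all above that of BY4741, as were those of 28.3% of all genes. The red signal alone called 196 genes and 0 of the 10.

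CAT-1 and JP1 were compared over 3 arrays each with time as a term. Of the 10 genes 0 passed limma's adjusted p, where 0.101% of all genes did. At an unadjusted p under 0.05 there were 2 of the 10 and 903 of all genes. ARN2 averaged -0.48 ± 0.11 in CAT-1 and -1.30 ± 0.58 in JP1 (SD, n = 3 each), a difference of 0.82 ± 0.34 (SE) with an adjusted p of 0.286, and 0.81 with an adjusted p of 0.0391 on the red signal alone. The difference of FET4 was -0.83 ± 0.29, with an adjusted p of 0.227.

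Whether the change with time differed between CAT-1 and JP1 was tested by their interaction. Of the 10 genes 0 passed limma's adjusted p, and 0% of all genes did, with 1 of the 10 and 341 of all genes at an unadjusted p under 0.05. The gene was FET3, at 2.37 ± 0.69 (log2, SE) with an adjusted p of 0.589. CAT-1 had both T6h arrays, at -0.74 and -0.45, above the T0h array, at -2.17. JP1 had both T6h arrays, at -1.57 and -0.70, below the T0h array, at -0.34. The interaction passed on the red signal alone, at 1.67 with an adjusted p of 0.0241, and without JP1 T6h replicate 4, at 2.81 with 0.0385. FET3 was not well above the red background on CAT-1 T6h replicate 2.

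**Figure D4:**
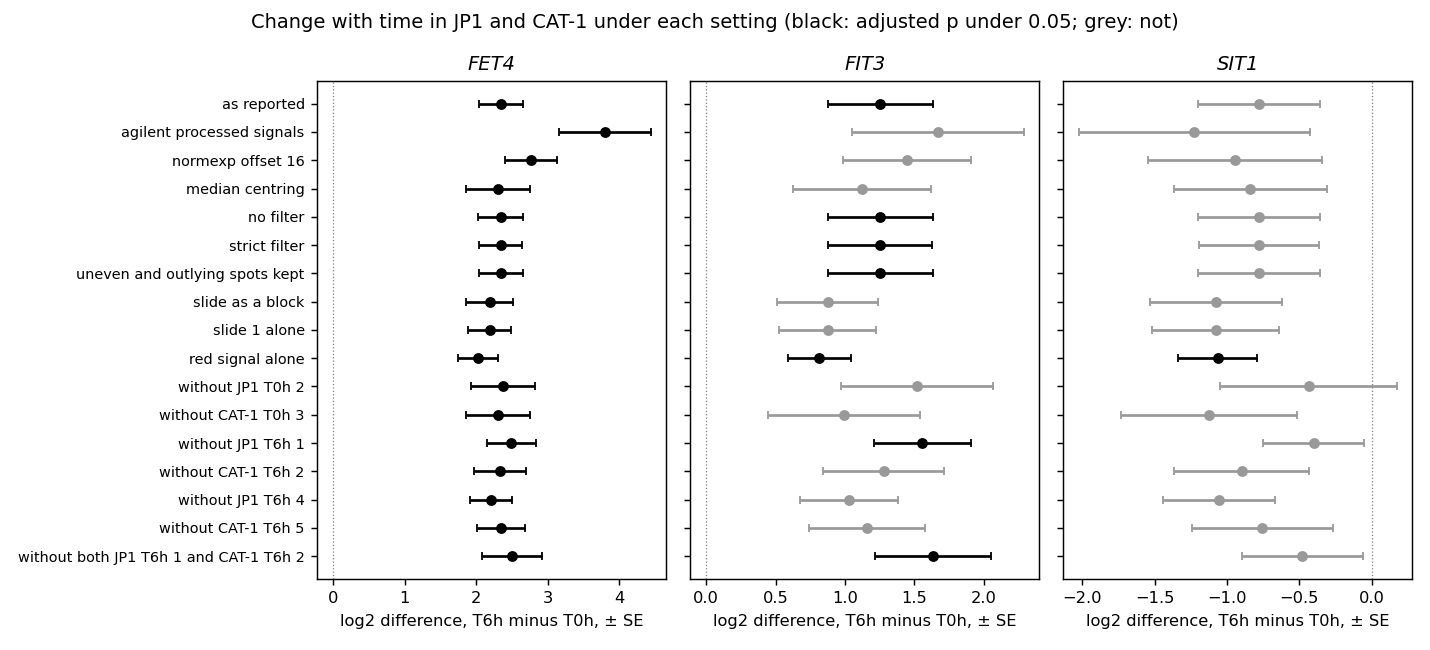
Log2 difference of T6h over T0h in JP1 and CAT-1 (horizontal axes) for FET4, FIT3 and SIT1, as reported, under each other processing setting and with arrays left out (named by strain, time and replicate number); points are estimates, bars are standard errors, and black marks an adjusted p under 0.05. FET4 lies between 2.03 and 3.80 in the other settings and is black throughout, FIT3 lies between 0.81 and 1.67 and is black in only some, and SIT1 is black on the red signal alone.

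The other genes of iron handling were taken as a list of 30, of which 29 passed the filter and FRE5 did not. Over all strains, 2 of the 29 rose with time and 3 fell, where 15.6% of all genes passed either way, so their share was near the background. ISU2, a scaffold on which iron-sulfur clusters are built, rose by 1.88 ± 0.52 (log2, SE), with an adjusted p of 0.0306, while its close relative ISU1 fell by 1.72 on that scale, with 0.00754. The reductase FRE3 rose by 1.28, with 0.0300. The main surface reductase FRE1 fell by 1.68, with an adjusted p of 0.00182, and CCC1, which carries iron into the vacuole, fell by 1.14, with 0.00945. With JP1 and CAT-1 alone, 1 of the 29 rose (FRE3) and 3 fell (FRE1, ISU1 and CCC1), where 19.7% of all genes passed either way. FRE1 kept its call in both comparisons under every alternative run, and ISU2, FRE3, ISU1 and CCC1 each lost theirs under some. FRE1, FRE2 and FRE3 thus had differences of -1.68, -0.28 and 1.28 over all strains, and FRE1 and FRE3 passed.

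At T0h, 7 of the 29 were higher in the industrial strains than in BY4741 and 6 lower, where 32.7% of all genes passed either way. HMX1, the haem oxygenase that frees iron from haem, was 1.63 ± 0.30 higher (SE), with an adjusted p of 0.00999. FRE1 was 1.39 higher, ATX1, the copper chaperone that feeds Fet3 by way of Ccc2, 1.37 higher, and ISU1 1.06 higher. CTH1, an RNA-binding protein of iron shortage, was at -0.97, the enterobactin importer ENB1 at -0.95, and FRE7 and FRE6 at -0.94 and -0.72. FRE6 kept its call in 3 of 9 alternatives, with adjusted p up to 0.166, and FRE7 in 7 of 9, with up to 0.154. Against BY4741, the change with time in JP1 and CAT-1 was lower for ATX1, at -1.92 with an adjusted p of 0.0245, and for FRE1, at -1.82 with 0.0334, where 12% of all genes passed either way. ATX1 kept that call in 7 of 14 alternatives and FRE1 in 5 of 14, with adjusted p up to 0.314 and 0.319. In the other tested comparisons 0 of the 29 passed by limma's adjusted p, with 5, 6 and 1 of them at an unadjusted p under 0.05.

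The 10 genes did not share 1 profile over the 8 arrays, which have the reference and the time contrast in common. Among their 45 pairs the median Pearson correlation of log2 ratios was 0.23, and 29 pairs were above 0. The highest was 0.86 for FET4 with FIT3 and the lowest -0.48 for FTR1 with SIT1. Over those same arrays, the gene outside the 10 most like FET4 was SRB2, at a correlation of 0.97, and the one most like FIT3 was YOR343C, at 0.95. FET3 was most like AMN1 (0.96), FTR1 like SKP2 (0.98), FRE2 like ADE2 (0.94), FIT1 like IZH4 (0.91) and FIT2 like UBR2 (0.95). ARN1 was most like TOM6 (0.88), ARN2 like HMI1 (0.97) and SIT1 like NOP8 (0.95). The mean of the 10 standardised profiles was followed most closely by YNL034W (0.92), MPH3 (0.90), FRE7 (0.89), PAU22 (0.89) and PAU19 (0.88), so 1 further iron gene, the reductase gene FRE7, was among those 5. With 8 arrays and 5938 genes, values this high are the top of a long ranking and are given as descriptions.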

How the data were processed

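The deposited scanner files came from Agilent Feature Extraction 10.10.1.1, per the file headers, and hold median spot signals and local backgrounds as intensity values, along with the software's processed intensity and its spot marks (other: no unit). The deposited value table has no stated unit (other) and entered no comparison. The submitters' processing notes name limma without a version. Here limma 3.58.1 (R 4.3.3) applied normexp (offset 50) and loess within arrays, without control or uneven spots, averaged the 2 spots of a probe and kept a probe where 3 or more arrays had it well above background in red or green. Red levels were quantile-normalised between arrays. Tests were limma's, two-sided, with Benjamini-Hochberg adjustment over 5938 genes and a threshold of 0.05, and were checked on simulated data. There, 200 of 5938 genes were changed, and the adjustment depends on that number, so recovery in the measured data can differ. A simulated log2 change of 2 was recovered in 0% of changed genes at T6h against BY4741 and in both time-by-strain comparisons. The other comparisons recovered 74.5% to 82%. At a log2 change of 4, recovery was 83.5% at T6h, 47% by time for CAT-1 against JP1 and 91% by time against BY4741. Thus 0 of 10 genes passing at T6h, or in the interaction of CAT-1 and JP1, does not show such changes absent. With 8 arrays, their number limits the precision. All 10 genes are described in every comparison; other iron genes are named by the 4 largest passing differences each way, and likeness by the highest Pearson correlation. Gene names follow the reference table, which held 5756 of the 6256. The members and lists were chosen with earlier results of these data known.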

Additional observations from a re-analysis of the deposited data

Results flagged for a closer look

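In 2 genes the change with time differed between strains by a test of that difference. FET4 rose in JP1 and CAT-1 relative to its change in BY4741, by 2.94 ± 0.47 on the log2 scale (SE), with an adjusted p of 0.00679 by limma, and FIT3 did so by 2.27 ± 0.58, with 0.0308. FET4 kept its call in 12 of 14 alternatives and FIT3 in 6 of 14, with adjusted p up to 0.113 and 0.261. Both values rest on the 1 BY4741 array at T6h and on the BY4741 reference at T0h, whose spread the test leaves out. Per the labels no array has its dyes swapped, although the labelling protocol mentions a swap. No array passed Dixon's test within the 5 T6h arrays in any of the 10 genes (critical value 0.71). The nearest to that value was ARN2 in JP1 replicate 1, at 0.65. With only 5 arrays, of different strains, this test can miss an array that stands apart.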

How the results depend on the processing

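Of the 10 genes, 1 passed with time over all strains, and 2 did on the red signal alone and 1 to 2 when 1 array was left out. In JP1 and CAT-1 2 passed, but 1 with Agilent's processed signals, offset 16, median centring, slide as a block or slide 1 alone. On the red signal alone 3 passed there, and with 1 array left out 1 to 2 did. At T0h 4 passed, and 2 to 5 with 1 array left out. For the time change against BY4741 2 passed, but 0 with processed signals or median centring, 1 with an offset of 16 or slide 1 alone, and 1 to 3 with 1 array left out. CAT-1 against JP1 gave 0, and 1 on the red signal alone; leaving out arrays gave 0 to 0. Their interaction gave 0, and 1 on the red signal alone, and 0 to 1 with 1 array left out. FET4 passed with time and at T0h under every alternative run, at 1.73 to 3.21 over all strains, 2.03 to 3.80 in JP1 and CAT-1 and -2.89 to -1.85 at T0h. Against BY4741 it lost its call with processed signals (4.61, adjusted p 0.0839) and median centring (3.03, 0.113). The cause of these shifts was not tested.

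Over all genes, time in all strains called 929, against 439 with median centring, 1613 on the red signal alone and 446 to 1126 with 1 array left out. In JP1 and CAT-1 it called 1167, against 565 with processed signals, 339 with median centring, 2505 on red alone and 417 to 1174 with 1 array left out. At T0h 1939 passed, and 532 without CAT-1. The time change against BY4741 called 712, but 1 with processed signals, 234 with an offset of 16, 2 with median centring, 114 on slide 1 alone and 180 to 917 with 1 array left out. At T6h, the comparison with BY4741 called 0, against 196 on red alone, 129 without the 2 arrays that the value table holds under other names (a choice made after seeing the data) and 0 to 60 with 1 array left out. CAT-1 against JP1 called 6, against 318 on red alone and 0 to 106 with 1 array left out, and their interaction 0, against 413 on red alone and 0 to 50 with 1 array left out.

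The replicate numbers join arrays of different strains, whose deviations correlated at -0.07, -0.14 and -0.15, so they do not pair the samples. With the replicate block, time over all strains called 1 of the 10 genes and 536 of all genes, and FET4 was at 1.91 with an adjusted p of 0.0171. The interaction of CAT-1 and JP1 on slide 1 alone could not be fitted, since no residual degrees of freedom remain, and the deposited value table was not run as an alternative. Green signal near background limits the ratios of the 2 arrays of slide 2, and dim red signal those of the CAT-1 T6h arrays.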

Other observations

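The genes next to the 10 on the chromosomes were looked at after their values were seen, with their order taken from the reference table. Of 14 such neighbours with a value outside the 10, 5 passed with time in JP1 and CAT-1 and 9 did not, where 19.7% of all genes passed. ADH6, an alcohol dehydrogenase gene that neighbours FET4 on chromosome XIII, was 1.92 higher at T6h than at T0h in JP1 and CAT-1 on the log2 scale, with an adjusted p of 0.00438 by limma. At T0h it was at -2.46 in the industrial strains against BY4741, with an adjusted p of 0.00172. The values of FET4 itself were 2.34 and -2.10. YMR320W, on the other side of FET4, was at 1.06 with time in JP1 and CAT-1 and at -0.27 at T0h. Neither value passed, with adjusted p of 0.0889 and 0.501 by limma. HSP31, a stress-induced chaperone gene beside FIT1 on chromosome IV, was 1.80 higher with time in the same strains, with an adjusted p of 0.00407, where FIT1 was at -0.10. AVT2, a putative transporter gene beside SIT1 on chromosome V, was at -1.46, with 0.0118, where SIT1 was at -0.78 and did not pass. PAU13, beside ARN2, was at 1.22, with 0.0272, and AAC1, beside FET3, at -1.51, with 0.0391, where ARN2 was at 0.06 and FET3 at 0.39 and neither passed. On the red signal alone, FET4 and SIT1 moved with time in opposite directions, by 2.03 and -1.06 in JP1 and CAT-1.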
